A study of Caenorhabditis elegans with 24 samples.

Results

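The lipid binding protein (lbp) genes of Caenorhabditis elegans encode small fatty acid binding proteins, which hold a fatty acid or a related lipid inside a barrel-shaped fold and carry it through the watery space between membranes. LBP-1, LBP-2 and LBP-3 carry signals for secretion, whereas other members work inside the cell, where they move lipids towards storage, oxidation or the nucleus. LBP-8 is the best known of these carriers: it takes a lipid released in the lysosome by the lipase LIPL-4 to the nuclear receptors NHR-49 and NHR-80, and LBP-3 is secreted from the intestine in the same longevity pathway.

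The members are the 9 genes lbp-1 to lbp-9, chosen by name and not by their values, out of 25616 genes on the array. They are read by 11 of its 43603 probes: 1 probe each, except lbp-8 and lbp-9 with 2 probes each. Earlier results of these data were known when the members and the gene lists set beside them were chosen. Expression was measured in whole worms, as hypochlorite-synchronised populations of early day 1 adults, on 24 two-colour arrays. The wild type was the N2 strain and the mutant was pqm-1(ok485), which carries the ok485 allele of the gene for the zinc finger transcription factor PQM-1. Each strain was untreated or exposed to 5 mM cobalt chloride (CoCl2, which chemically mimics low oxygen) for 6 h or 20 h. Each array held 2 of these RNA samples, and at each time 3 arrays were made for each of 4 comparisons: CoCl2 against untreated in wild type, CoCl2 against untreated in the mutant, mutant against wild type untreated, and mutant against wild type with CoCl2.

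Development of the mutant is slower than that of wild type according to the study, so strain and developmental stage cannot be told apart in the comparisons between strains. RNA of whole worms does not separate fewer cells of a type from less RNA per cell. The labels number 3 replicates per comparison, which the methods call biological, without saying whether comparisons share RNA samples, so p-values measure only the spread between these arrays. Each condition enters both a CoCl2 comparison and a comparison of strains, so the comparisons may share control samples and their values are given side by side.

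Across the 24 arrays, between 69.0% and 92.1% of probes were above background in at least 1 channel (median 85.9%), between 0 and 996 probes were saturated (median 194), and replicate arrays correlated with r between 0.674 and 0.961 across genes. The direction of each ratio was taken from the strain and treatment fields of each channel; the source names would turn the sign on 11 of the 24 arrays, while the authors' series table runs the way of the fields on 24 of 24. The pqm-1 probe read -2.27 on the log2 scale in untreated mutants against wild type at 6 h and -1.45 at 20 h, but -0.04 and 0.19 with CoCl2 present; its position relative to the ok485 allele is not given in the sources used here. On 1 array (CoCl2 against untreated in the mutant at 6 h, replicate 2) title and strain field give the mutant for both channels, but the Cy3 source name reads wild type with CoCl2. The means of that comparison and the mutant time differences are given with and without it; levels, correlations and the 6 h strain differences from the other pair of comparisons include it.

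Throughout, a value is a log2 ratio between the 2 RNA samples of an array, and a gene was called changed when the adjusted p of limma (Benjamini-Hochberg over all genes tested) was below 0.01. All 9 lbp genes were tested at 6 h and 8 at 20 h. At 20 h, lbp-2 had a value on only 1 of the 3 arrays of the untreated strain comparison, since the spot was marked as an outlier on the others, so it did not pass the minimum of 2 arrays.

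**Figure D1:**
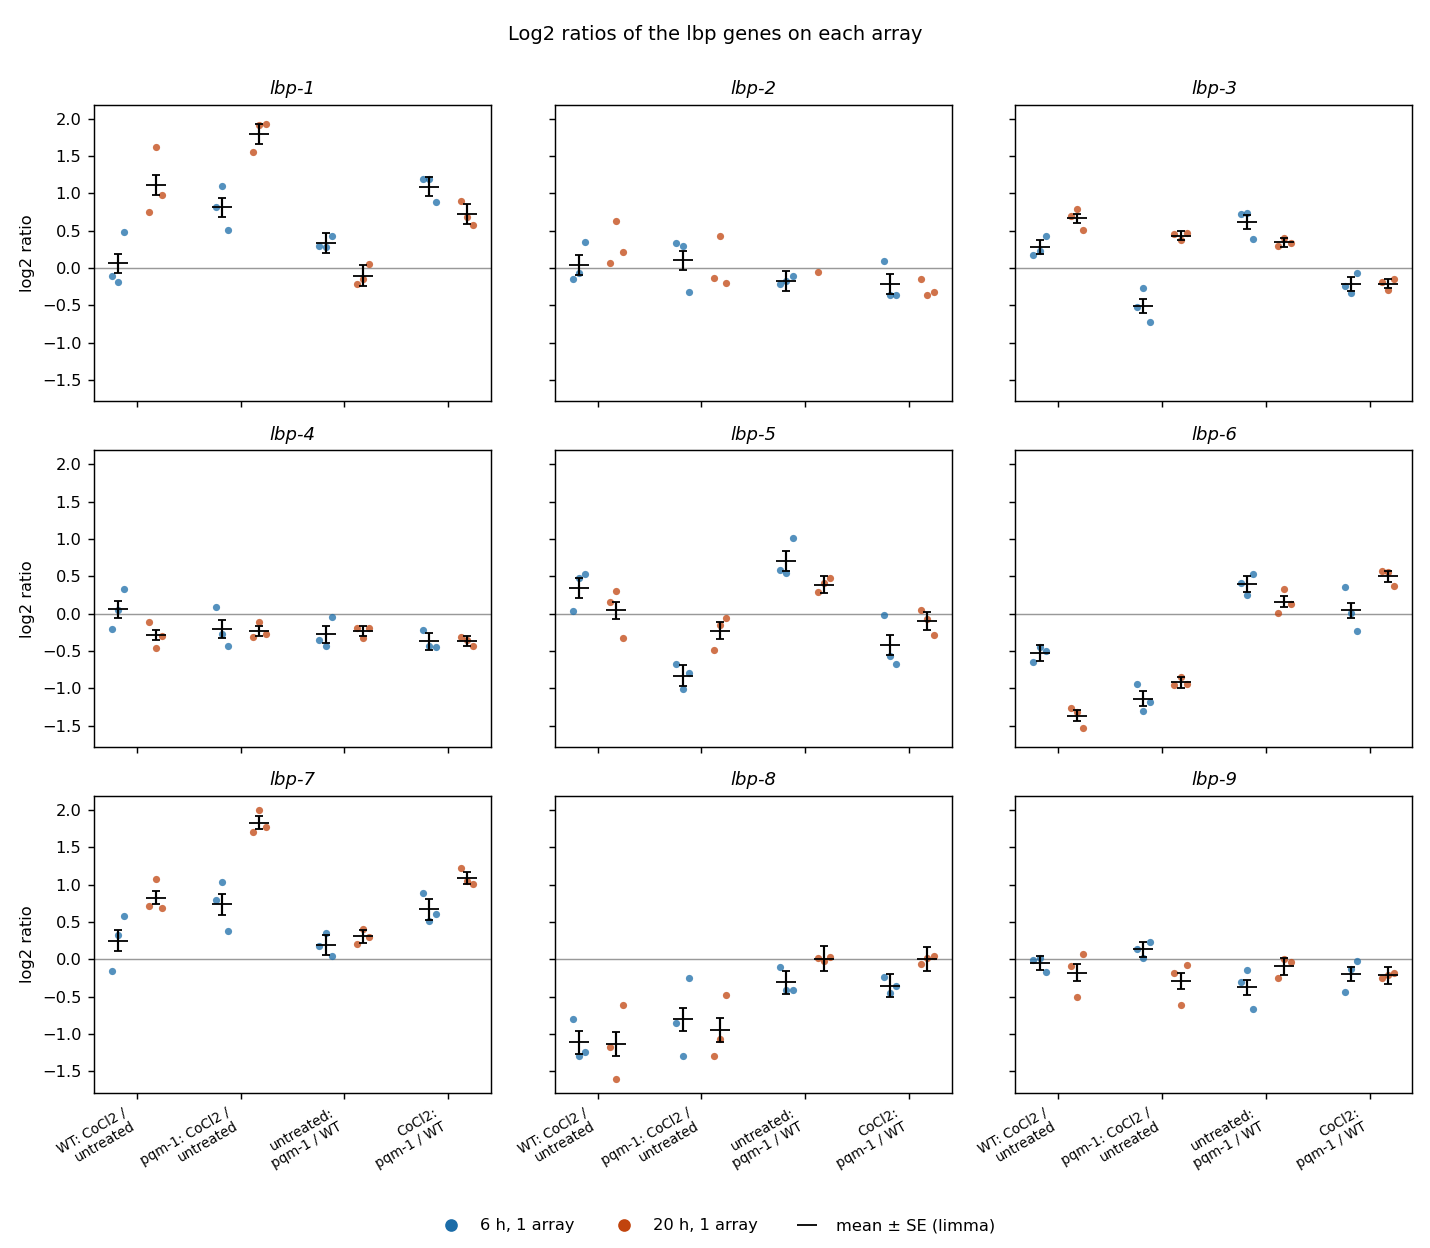
Log2 ratios (vertical axis) of the 9 lbp genes on each of the 24 arrays, grouped by comparison along the horizontal axis, with 1 point per array (6 h and 20 h in different colours) and the mean ± SE of the limma fit in black; lbp-2 at 20 h has points only. lbp-1 and lbp-7 lie above 0.3 on the arrays of the mutant with CoCl2 against the untreated mutant, and lbp-6 lies below -0.4 on every array of CoCl2 against untreated.

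In wild type worms, 6 h of CoCl2 lowered lbp-6 and lbp-8 and left no lbp gene called higher. These 2 of 9 members stand beside 4.24% of all genes called in that comparison, 2.56% higher and 1.68% lower. For lbp-8, the lysosomal lipid chaperone, the 3 arrays read -0.79, -1.29 and -1.24, all well below 0, and the mean was -1.11 (SE 0.16, a 2.16-fold lower level, adjusted p = 5.8e-04). For lbp-6 the arrays read -0.64, -0.44 and -0.50. The mean was -0.53 (SE 0.10, 1.44-fold lower, adjusted p = 0.00622), and this call was lost on omitting any of the 3 arrays, as that of lbp-8 was without replicate 2. The other 7 members had means between -0.05 and 0.35; at an unadjusted p of limma below 0.05, 4 of the 9 members passed, the others being lbp-3 (0.28) and lbp-5 (0.35).

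In pqm-1(ok485) worms, 6 h of CoCl2 moved 6 of the 9 members, beside 10.9% of all genes (6.07% higher, 4.83% lower): lbp-1 and lbp-7 rose, and lbp-3, lbp-5, lbp-6 and lbp-8 fell. The largest change was that of lbp-6, with array values of -0.94, -1.30 and -1.18 and a mean of -1.14 (SE 0.10, 2.21-fold lower, adjusted p = 6.8e-06). All 3 arrays lay below those of wild type at this time, but the direct test of the strain difference, given below, did not call lbp-6. For lbp-5, a cytosolic carrier known to affect fat storage, the arrays read -0.68, -1.01 and -0.80 (mean -0.83, SE 0.14, adjusted p = 9.5e-04), where those of wild type read 0.03, 0.48 and 0.53. The mutant arrays of lbp-5 were all below 0 and the wild type arrays all above it. At 6 h no slide held CoCl2 against untreated for both strains. Slide and strain thus cannot be told apart where arrays of these comparisons are set side by side, here and below.

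For lbp-3, the secreted member of the intestine, the mutant arrays read -0.53, -0.27 and -0.72 (mean -0.51, SE 0.10, adjusted p = 0.00265) and the wild type arrays 0.17, 0.22 and 0.43, again with no overlap. For lbp-1, whose product also carries a secretion signal, the mutant arrays read 0.82, 1.10 and 0.51 (mean 0.81, SE 0.13, 1.75-fold higher, adjusted p = 7.2e-04), and those of wild type -0.10, -0.19 and 0.49. The lowest mutant array lay just above the highest wild type array. For lbp-7 the mutant arrays read 0.80, 1.03 and 0.38 (mean 0.74, SE 0.14, adjusted p = 0.00246) and the wild type arrays -0.15, 0.33 and 0.58, which overlap. For lbp-8 they read -0.86, -1.30 and -0.25 (mean -0.80, SE 0.16, adjusted p = 0.00305), so the third array showed a much smaller drop than the others.

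Without replicate 2, the array whose source name differs from its title, lbp-3 (-0.62) and lbp-6 (-1.06) stayed called in the mutant at 6 h, and lbp-1 (0.67), lbp-5 (-0.74), lbp-7 (0.59) and lbp-8 (-0.55) kept their direction but lost their calls. Without replicate 1 the calls of lbp-1, lbp-5 and lbp-6 remained, and without replicate 3 those of all but lbp-3.

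After 20 h of CoCl2 wild type worms showed a broader change: 6 of 8 members tested were called, 3 higher and 3 lower, beside 15.9% of all genes (8.98% higher, 6.93% lower). For lbp-6 the arrays read -1.26, -1.31 and -1.53, with a mean of -1.37 (SE 0.07, 2.58-fold lower, adjusted p = 9.3e-08). For lbp-1 they read 0.75, 1.61 and 0.98 (mean 1.12, SE 0.14, 2.17-fold higher, adjusted p = 7.9e-05). All arrays of both genes lay on their own side of 0. For lbp-7 the arrays read 0.72, 1.08 and 0.69 (mean 0.83, SE 0.09, adjusted p = 2.1e-05), and for lbp-3 they read 0.70, 0.79 and 0.51 (mean 0.67, SE 0.06, adjusted p = 7.5e-06). Both genes rose on every array. For lbp-8 the arrays read -1.17, -1.61 and -0.61 (mean -1.13, SE 0.16, adjusted p = 3.0e-04). The smallest call was lbp-4, with arrays at -0.11, -0.46 and -0.29 and a mean of -0.29 (SE 0.07, adjusted p = 0.00914), a call lost without replicate 2 and without replicate 3.

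In the mutant at 20 h, 5 of 8 members were called, 3 higher and 2 lower, beside 35.2% of all genes (22.8% higher, 12.4% lower). For lbp-7 the arrays read 1.71, 2.01 and 1.78 (mean 1.83, SE 0.09, 3.55-fold higher, adjusted p = 1.9e-08), each above every wild type array. For lbp-1 they read 1.56, 1.91 and 1.93 (mean 1.80, SE 0.14, 3.48-fold higher, adjusted p = 8.2e-07), of which the lowest lay just below the highest wild type array. For lbp-6 the arrays read -0.95, -0.85 and -0.94 (mean -0.92, SE 0.07, adjusted p = 1.4e-06), each closer to 0 than any wild type array. For lbp-8 they read -1.29, -1.06 and -0.48 (mean -0.94, SE 0.16, adjusted p = 4.8e-04), and for lbp-3 they read 0.46, 0.37 and 0.47 (mean 0.43, SE 0.06, adjusted p = 1.0e-04). Of the genes that fell in the mutant at 6 h, lbp-3 was thus higher with CoCl2 at 20 h, and lbp-5 read -0.48, -0.14 and -0.06, which did not pass the test. lbp-4, at -0.31, -0.12 and -0.27, missed the threshold (adjusted p = 0.0157), and lbp-9 was called at neither time in either strain.

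Whether the CoCl2 effect differed between strains was tested directly. At 6 h the difference was taken as the strain comparison with CoCl2 minus the untreated strain comparison, and 2 of 9 members were called, beside 3.05% of all genes (1.71% positive, 1.34% negative). For lbp-5 the difference was -1.13 (SE 0.19, adjusted p = 0.00431) and for lbp-3 it was -0.83 (SE 0.14, adjusted p = 0.00319). Both were lower with CoCl2 in the mutant relative to wild type than without it. The other pair of comparisons, CoCl2 against untreated in the mutant minus the same in wild type, gave -1.18 for lbp-5 (adjusted p = 0.00488) and -0.78 for lbp-3 (adjusted p = 0.00681). For lbp-1 the difference of 0.75 missed the threshold (adjusted p = 0.0286). For lbp-6 it was -0.35 (adjusted p = 0.224), and -0.61 with the other pair (adjusted p = 0.0352), neither called. Both calls were sensitive to single arrays: of the 6 arrays left out in turn, the call of lbp-5 was lost in 5 cases and that of lbp-3 in 4. The untreated strain arrays all lay on 1 slide and those with CoCl2 on another, so slide and this difference cannot be told apart. In the other pair no slide held arrays of both strains, so slide and difference cannot be told apart there either.

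At 20 h the difference was taken as CoCl2 against untreated in the mutant minus the same in wild type, and only lbp-7 of the 8 members was called, beside 8.86% of all genes (8.13% positive, 0.737% negative). The difference for lbp-7 was 1.00 (SE 0.12, adjusted p = 3.2e-04), and with the other pair of comparisons it was 0.78 (adjusted p = 0.00109). Both arrays of the mutant and the array of wild type that shared 1 slide gave a difference of 0.78 (1.86 against 1.08). lbp-6, at 0.45, and lbp-1, at 0.68, missed the threshold (adjusted p = 0.0110 and 0.0302). With the other pair of comparisons, lbp-1 (0.82, adjusted p = 0.00875) and lbp-3 (-0.55, adjusted p = 0.00115) also passed it. In that other pair the untreated strain arrays all lay on 1 slide and those with CoCl2 on another, so slide and difference cannot be told apart. Within the slide shared by the CoCl2 comparisons of both strains the difference for lbp-1 was 0.12. Hypodermis markers differed in the same direction in this contrast, with a median of 1.11 and 5 of 8 genes called higher, as did intestine markers (median 0.42, 4 of 8 called higher), and sperm markers had a median of 0.91 with 1 of 22 called; the part of these in the lbp-7 difference was not tested.

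**Figure D2:**
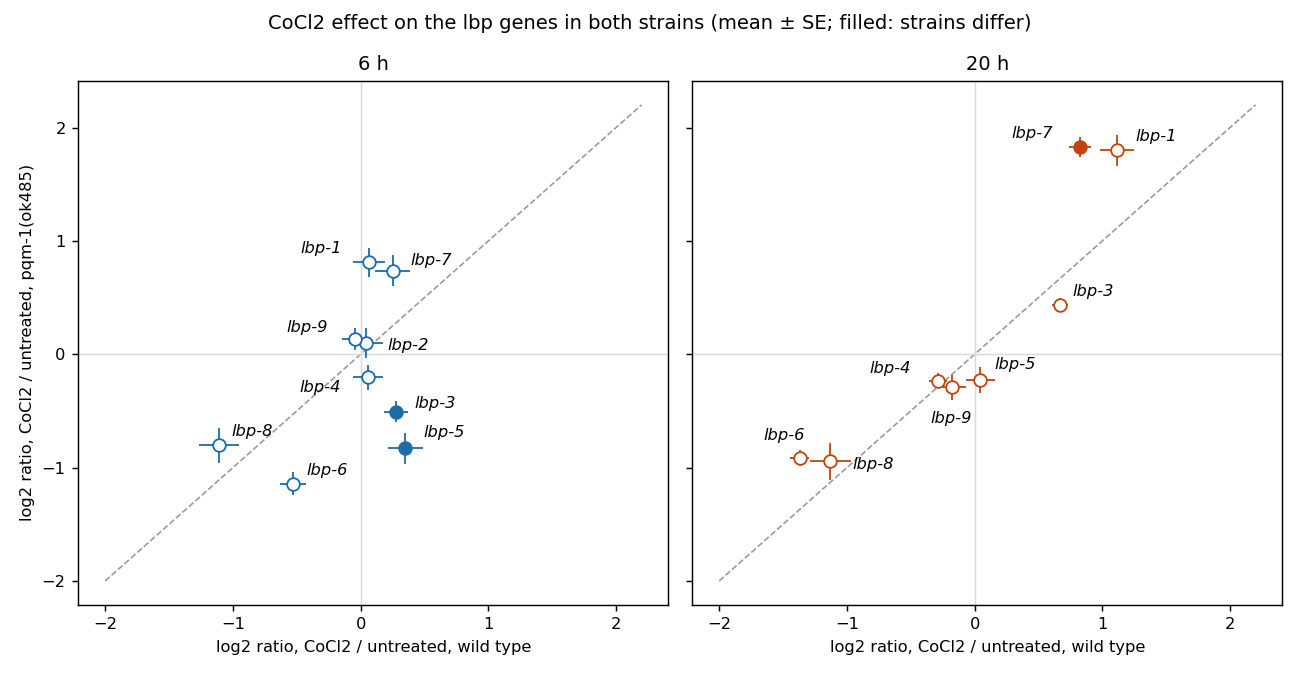
Mean log2 ratio of CoCl2 against untreated in wild type (horizontal axis) and in pqm-1(ok485) (vertical axis) for each lbp gene, with bars of 1 SE, at 6 h and at 20 h; the dashed line marks equal effects and filled points are the genes called in the test of the strain difference. lbp-3 and lbp-5 lie right of 0 and below it at 6 h, and lbp-7 lies farthest above the line at 20 h.

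The difference between the times was tested in a fit over all 24 arrays. In wild type it was called for 2 of 8 members, beside 5.65% of all genes (3.1% higher at 20 h, 2.55% lower): the CoCl2 effect on lbp-1 was higher at 20 h than at 6 h by 1.05 (SE 0.20, adjusted p = 0.00121), and that on lbp-6 differed by -0.84 (SE 0.13, adjusted p = 1.4e-04). Within the 1 slide that held both times the differences, from 1 array at 20 h and 3 at 6 h, were 0.68 for lbp-1 and -0.74 for lbp-6. The call of lbp-1 was lost without replicate 2 of either time. In the mutant 3 of 8 members were called, beside 16% of all genes (13.4% higher, 2.63% lower), all higher at 20 h: lbp-7 by 1.09 (SE 0.17, adjusted p = 6.3e-05), lbp-1 by 0.99 (SE 0.20, adjusted p = 7.7e-04) and lbp-3 by 0.94 (SE 0.11, adjusted p = 4.6e-06). Without replicate 2 of the 6 h mutant set these differences were 1.24 for lbp-7, 1.13 for lbp-1 and 1.06 for lbp-3, each still called. The difference of lbp-3 is a change of direction, from a fall at 6 h to a rise at 20 h. No slide held both times of the mutant CoCl2 comparison, so slide and time cannot be told apart there. The study places both exposures at early adulthood and gives no separate age at collection for the 6 h and 20 h sets. Worm age may thus differ along with exposure time in both strains, and the 2 cannot be told apart. Sperm markers also differed between the times in the mutant, all 22 tested being called higher at 20 h with a median of 2.54, as did 6 of 8 hypodermis markers; their part in the lbp values was not tested.

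Without CoCl2, 2 of 9 members were called in the mutant against wild type at 6 h, both higher, beside 13.8% of all genes (10.5% higher, 3.24% lower); at an unadjusted p of limma below 0.05, 6 of 9 passed. For lbp-5 the arrays read 0.58, 0.54 and 1.01 (mean 0.71, SE 0.14, 1.64-fold higher, adjusted p = 0.00232), and for lbp-3 they read 0.73, 0.74 and 0.38 (mean 0.62, SE 0.10, 1.53-fold higher, adjusted p = 4.8e-04). All arrays of both genes lay above 0, and the call of lbp-5 was lost without replicate 1 and without replicate 3. The values of lbp-6 (0.40, adjusted p = 0.0142) and lbp-9 (-0.37, adjusted p = 0.0172) missed the threshold. In the 20 h set 1 of 8 was called and 4 passed unadjusted, beside 4.35% of all genes called (3.1% higher, 1.26% lower): lbp-3 at 0.29, 0.40 and 0.33 (mean 0.34, SE 0.06, adjusted p = 0.00422), a call lost on omitting any array. For lbp-5 the arrays read 0.29, 0.40 and 0.47, all above 0 without passing the test. No member differed between the times in this comparison, where 0.207% of all genes did (0.0605% higher, 0.147% lower), or in the comparison of strains with CoCl2, where 17.8% did (11.8% higher, 5.97% lower); at an unadjusted p of limma below 0.05, 2 of 8 members passed in each.

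With CoCl2 present in both strains, 2 of 9 members were called at 6 h, both higher in the mutant, beside 19.6% of all genes (14.2% higher, 5.42% lower). For lbp-1 the arrays read 1.19, 1.19 and 0.88 (mean 1.09, SE 0.13, 2.13-fold higher, adjusted p = 4.0e-05), and for lbp-7 they read 0.89, 0.52 and 0.61 (mean 0.67, SE 0.14, 1.59-fold higher, adjusted p = 0.00279). The call of lbp-1 was kept without any 1 array, and that of lbp-7 was lost without any 1. For lbp-3 the arrays read -0.25, -0.34 and -0.07 and for lbp-5 they read -0.02, -0.56 and -0.67, below 0 on every array where the untreated comparison was above 0, but neither passed the test.

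At 20 h with CoCl2, 4 of 8 members were called, 3 higher and 1 lower in the mutant, beside 37.3% of all genes (23.7% higher, 13.6% lower). For lbp-7 the arrays read 1.22, 1.05 and 1.01 (mean 1.09, SE 0.09, 2.13-fold higher, adjusted p = 2.4e-06). For lbp-1 they read 0.89, 0.68 and 0.58 (mean 0.72, SE 0.14, adjusted p = 9.3e-04), and the probe was saturated on 1 of these arrays. Both were higher in the mutant on every array, as at 6 h, and the call of lbp-1 was lost without replicate 1. For lbp-6 the arrays read 0.57, 0.56 and 0.38 (mean 0.50, SE 0.07, 1.41-fold higher, adjusted p = 1.5e-04), and for lbp-4 they read -0.31, -0.36 and -0.44 (mean -0.37, SE 0.07, 1.29-fold lower, adjusted p = 9.0e-04). The arrays of each gene lay on 1 side of 0. lbp-3 read -0.19, -0.29 and -0.15 and missed the threshold (adjusted p = 0.0131).

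Tissue markers also differed between the strains. Sperm markers, of which 22 of 28 were tested and which are read through near-identical major sperm protein copies, had medians of 3.34 untreated and 3.25 with CoCl2 at 6 h (22 of 22 called higher in each), and of 2.41 and 1.69 at 20 h (20 and 21 called higher). Hypodermis markers had medians of 1.30 and 0.77 at 6 h and of 0.83 and 1.55 at 20 h, with 5 or 6 of 8 called higher. Intestine markers had medians of 0.33, 0.36, 0.27 and 0.63 in the same order, with 2 to 5 of 8 called higher, and muscle markers 0.57, 0.68, 0.59 and 0.45. Of all genes, 10.5%, 14.2%, 3.1% and 23.7% were called higher in these strain comparisons. With CoCl2 against untreated at 6 h, sperm markers had medians of 0.24 in wild type (array medians of -0.45, 1.18 and -0.02 for replicates 1 to 3) and 0.19 in the mutant (0.05, 0.06 and 0.51), with none of 22 called and 0 at an unadjusted p of limma below 0.05. At 20 h the medians were 1.88 in wild type (19 called higher, array medians of 1.47, 3.14 and 0.98 for replicates 1 to 3) and 2.72 in the mutant (22 called higher), beside 8.98% and 22.8% of all genes called higher. The array of wild type with the highest sperm median at 20 h, replicate 2, also had the highest lbp-1 and lbp-7 and the lowest lbp-8 values of its comparison. In the other comparisons of CoCl2 against untreated, the array with the highest sperm median had neither the highest lbp-1 nor the highest lbp-7. In wild type at 6 h that array (1.18) had the lowest lbp-1 (-0.19). In the mutant at 20 h it (2.79) had the lowest lbp-1 (1.56) and lbp-7 (1.71). Between strains with CoCl2 at 20 h, replicate 1 had the highest sperm median (2.41), lbp-1 and lbp-7. In the remaining strain comparisons the array with the highest sperm median had the highest lbp-7 but not the highest lbp-1. These arrays were replicate 2 untreated at 6 h (3.70, lbp-7 0.35), replicate 1 with CoCl2 at 6 h (3.66, 0.89) and replicate 2 untreated at 20 h (2.44, 0.41). Oocyte and eggshell markers were lower for 9 of 12 genes in each 20 h comparison of the CoCl2-treated mutant, beside 12.4% of all genes against the untreated mutant and 13.6% against wild type. The part of these tissues in the lbp values was not tested.

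**Figure D3:**
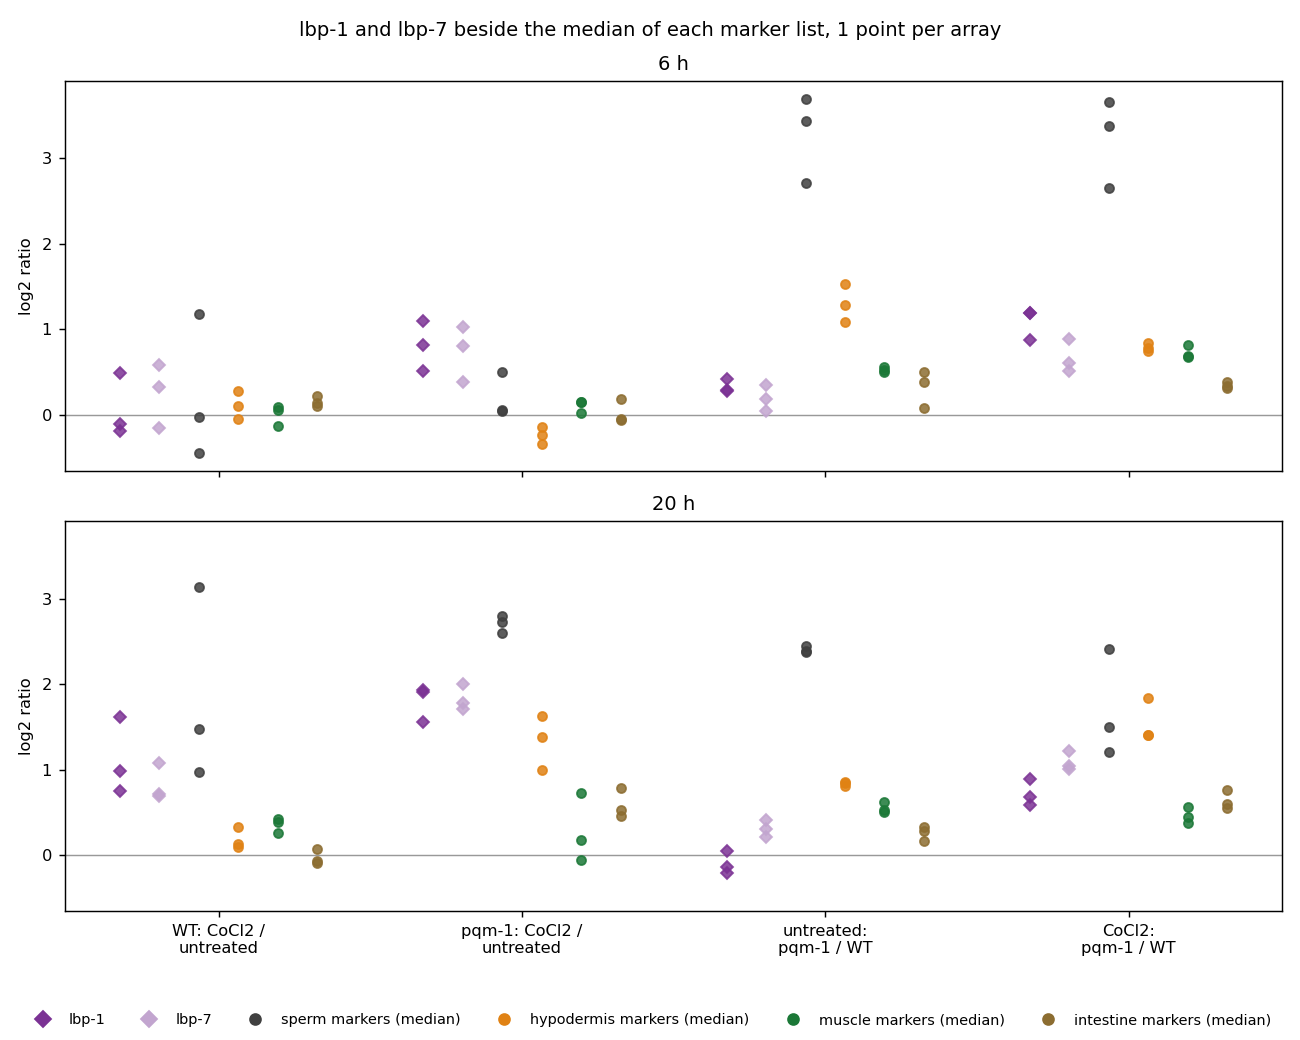
Log2 ratios of lbp-1 and lbp-7 and the median log2 ratios of 4 tissue marker lists (vertical axis) in the 4 comparisons (horizontal axis) at 6 h and 20 h, with 1 point per array. The sperm medians of the 6 h strain comparisons lie between 2.65 and 3.70, above every lbp point, and those of wild type with CoCl2 at 20 h spread from 0.98 to 3.14.

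The levels behind these ratios, as mean log2 intensity over the 6 channels that held each RNA at a time, put lbp-7 at 20 h highest in the mutant with CoCl2 (11.80 ± 0.18, SD, 6 channels), then in wild type with CoCl2 (10.82 ± 0.24) and in the untreated mutant (10.08 ± 0.17), with untreated wild type lowest (9.99 ± 0.27). The channels of the first 2 groups did not overlap, and those of both untreated groups did. For lbp-1 at 20 h the order was the mutant with CoCl2 (14.30 ± 0.12), wild type with CoCl2 (13.86 ± 0.30), untreated wild type (13.11 ± 0.38) and the untreated mutant (12.79 ± 0.45), with overlapping channels in each neighbouring pair. For lbp-6 at 20 h the untreated mutant (14.17 ± 0.12) and untreated wild type (14.06 ± 0.16) overlapped, the mutant with CoCl2 came next (13.43 ± 0.16), and wild type with CoCl2 was lowest (12.93 ± 0.20). At 6 h lbp-5 was highest in the untreated mutant (11.47 ± 0.21) and lowest in the mutant with CoCl2 (10.59 ± 0.22), with wild type between them at 11.14 ± 0.29 with CoCl2 and 10.86 ± 0.20 untreated. These levels come from both dyes and are open to dye bias.

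The signal of lbp-8 was dim. Its 2 probes both read lower with CoCl2, by different amounts: A_12_P155500 had means of -1.69 and -1.28 for CoCl2 against untreated at 6 h in wild type and the mutant and of -1.74 and -1.45 at 20 h, while A_12_P119973 had means of -0.53, -0.32, -0.52 and -0.44. At 20 h the CoCl2 channel of A_12_P155500 was above background on 0 of 3 arrays in both strains. Its level there was thus not resolved from background, and the size of its fall is uncertain. By the measured means this probe was 3.34-fold lower with CoCl2 in wild type (arrays from -2.30 to -0.97). In the mutant it was 2.74-fold lower (arrays from -1.98 to -0.81). The size also depended on the handling of background: without the offset added to the intensities the mean over both probes was -1.61 and -1.60 at 6 h and -2.46 and -1.91 at 20 h, and the call in wild type at 6 h was lost. The direction was below 0 on all 12 arrays of CoCl2 against untreated. Between strains lbp-8 was called by limma in none of 4 comparisons, with 1 at an unadjusted p below 0.05. Untreated at 20 h its arrays read 0.02, -0.02 and 0.03. With CoCl2 its signal was near background, so those comparisons could show little difference. At 20 h A_12_P155500 was above background on 2 of 3 arrays in the mutant and 0 of 3 in wild type (levels 6.25 and 6.24). At 6 h it was so on 1 of 3 and 3 of 3.

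**Figure D4:**
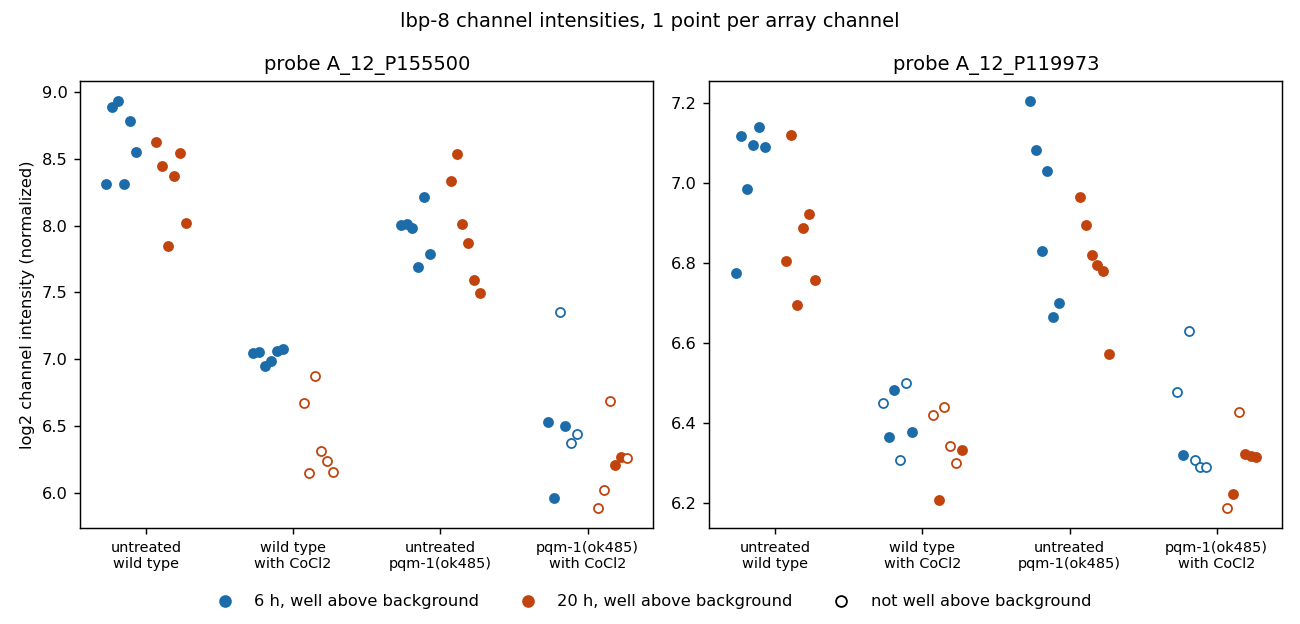
Normalised log2 intensity (vertical axis) of the 2 lbp-8 probes in each array channel, by the RNA it held (horizontal axis), at 6 h and 20 h (colours); open symbols are channels not well above background, and each probe has its own scale. For A_12_P155500 the wild type channels with CoCl2 at 20 h lie between 6.15 and 6.88, below the untreated channels at 7.85 to 8.62.

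The members called least often were lbp-2, lbp-4, lbp-5 and lbp-9. lbp-2, next to lbp-1 on the chromosome, was called by limma in none of the 4 comparisons at 6 h, nor passed an unadjusted p of 0.05 in any (0 of 4), and its means ranged from -0.21 to 0.10. At 20 h its arrays read 0.07, 0.62 and 0.21 in wild type with CoCl2, -0.13, 0.43 and -0.20 in the mutant with CoCl2, and -0.15, -0.37 and -0.32 between the CoCl2-treated strains. Without the minimum number of arrays, none of its 20 h values passed the threshold (adjusted p between 0.108 and 0.971). lbp-4 was called in 2 of 8 comparisons, both at 20 h and both lower, with 6 of 8 at an unadjusted p of limma below 0.05, among them all 4 strain comparisons. lbp-9, with 2 probes, was called by limma in none, with 2 of 8 at an unadjusted p below 0.05, and its means ranged from -0.37 to 0.13; 1 of its probes was saturated on 1 array in 2 of the comparisons, and the gene overlaps the end of the annotated gene Y40B10A.9, while lbp-8 contains the small piRNA gene 21ur-15418.

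Counted over all 8 comparisons, lbp-1 and lbp-7 were called higher in 5 each and lower in none, lbp-8 lower in 4, lbp-6 lower in 4 and higher in 1, lbp-3 higher in 4 and lower in 1, and lbp-5 once in each direction. Between 4.24% and 37.3% of all genes were called in a single comparison, and the share of all genes called this often was not computed. The comparisons of a time join the same 4 conditions, so these calls are not separate results. Over the 24 arrays, which are 8 comparisons of 3 arrays each and carry both dye orientations, and for the 8 members with values at both times, lbp-1 and lbp-7 had the closest values of any pair (Pearson r = 0.86, Spearman rho = 0.83), followed by lbp-6 and lbp-8 (0.73 and 0.74) and by lbp-3 and lbp-5 (0.66 and 0.61). These correlations are given as a description without a test.

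**Figure D5:**
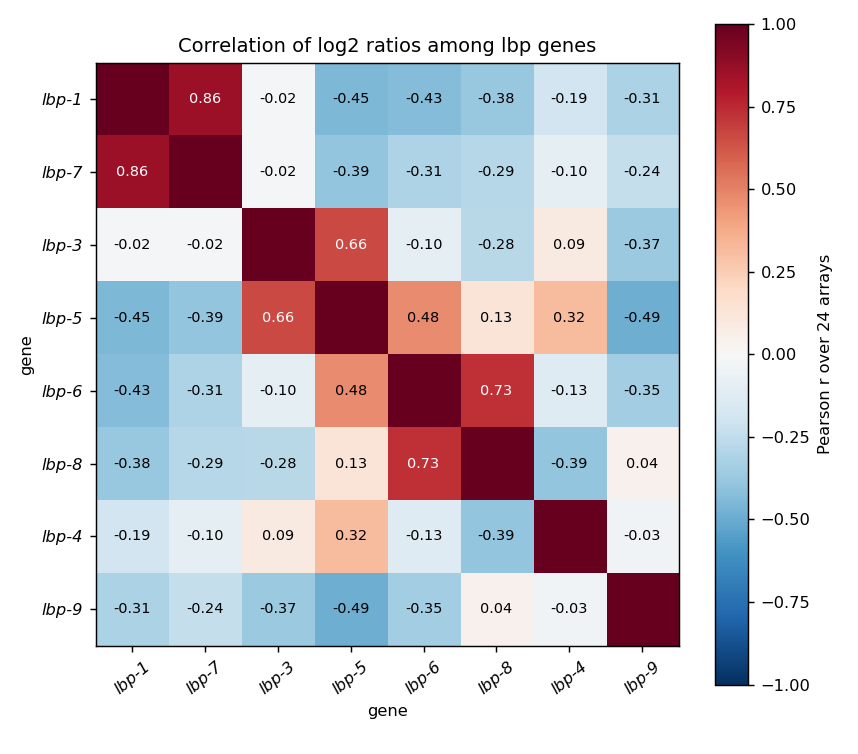
Pearson correlation between the log2 ratios of each pair of the 8 lbp genes measured at both times, over the 24 arrays; both axes list the genes and the colour scale runs from -1 to 1. The highest pair is lbp-1 with lbp-7 at 0.86, then lbp-6 with lbp-8 at 0.73.

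Place in the genome did not line up with these pairs. In the WBcel235 annotation, used only for the order of genes because the array was designed on another build, lbp-3, lbp-1 and lbp-2 are direct neighbours on chromosome X with 0 genes between them, yet lbp-1 and lbp-3 had a correlation of -0.02. lbp-5 and lbp-6 on chromosome I have 1 gene between them and a correlation of 0.48, and lbp-7 and lbp-8 on chromosome V have 3 genes between them and a correlation of -0.29. lbp-1 and lbp-7, the closest pair, lie on different chromosomes, as do lbp-6 and lbp-8.

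The genes with the values most like each member, among 21342 genes compared over the 24 arrays, were again a description. For lbp-1 they were vamp-8 (r = 0.95), Y73F4A.2 (0.94) and flp-18 (0.92), the last a neuropeptide gene. For lbp-7 they were ttr-23 (0.96), fbxa-98 (0.94) and cps-6 (0.94), and for lbp-6 cest-2.1 (0.97), F37C4.6 (0.97) and K10C2.8 (0.96). These genes were picked as the highest of all genes compared, so their r values cannot be weighed against those within the lbp family. Of the genes compared, 0.15% had r above 0.9 with lbp-1, 0.17% with lbp-7 and 0.55% with lbp-6. For lbp-8 the closest genes were the transcript CB400149 (0.95), clec-210 (0.92), a C-type lectin gene, and F23F12.13 (0.92). lbp-5 was closest to F18E3.12 (0.91), F18E3.11 (0.88) and eppl-1 (0.87), and lbp-3 to the unnamed transcript NM_001047784 (0.90), F45E1.3 (0.88) and Y54G11A.7 (0.86). lbp-4 had the weakest matches, led by dhhc-6 (0.79), mdt-11 (0.76) and C45272 (0.75).

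The partners of the LBP-8 and LBP-3 pathways, a list of 8 genes, gave values that can be set beside those of the carriers. lipl-4, the lysosomal lipase upstream of LBP-8, fell with CoCl2 in wild type by 0.70 at 6 h (adjusted p = 0.00375) and fell by 1.51 at 20 h (adjusted p = 1.1e-06), and in the mutant it fell by 0.57 at 20 h (adjusted p = 0.00113). In wild type lbp-8 was thus lower at the same times as lipl-4. Untreated mutants had lower lipl-4 than wild type at both times (-0.57 each), whereas lbp-8 was not called there. nhr-80, the receptor that receives the LBP-8 lipid, rose at 20 h by 0.69 in wild type (adjusted p = 3.6e-04) and by 0.86 in the mutant (adjusted p = 2.8e-05), and nlp-11, a neuropeptide gene of the LIPL-4 pathway, rose by 0.64 and 0.91 at 20 h. Of the 8 partners, 1 was called in each strain at 6 h, beside 4.24% of all genes in wild type and 10.9% in the mutant, and 3 and 5 were called at 20 h, beside 15.9% and 35.2%.

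Other lipid carrier families differed in which members moved. Among the 8 far genes, which encode fatty acid and retinol binding proteins, none was called in wild type at 6 h (1 at an unadjusted p of limma below 0.05) and 3 rose at 20 h, led by far-7 at 2.08 (adjusted p = 2.9e-07). Of all genes, 4.24% were called in wild type at 6 h and 8.98% were called higher at 20 h. In the mutant far-7 rose at 6 h (1.74) and at 20 h (2.49), so that, like lbp-1 and lbp-7, it was higher with CoCl2 at both times there. far-3 rose in the mutant at 20 h by 1.92 and differed between strains by 2.51 (adjusted p = 8.2e-04). Among the 7 acyl-CoA binding genes, acbp-6 fell by 0.79 in wild type and fell by 0.66 in the mutant at 20 h, and maa-1 and acbp-4 rose in the mutant at 20 h by 1.01 and 0.97. Of 7 yolk lipid transport genes tested, 6 fell at 20 h in each strain, beside 6.93% of all genes in wild type and 12.4% in the mutant. These 6 held all 5 vitellogenins tested, whose yolk proteins carry lipid out of the intestine, with dsc-4, a lipid transfer protein of lipoprotein assembly, in wild type and the yolk receptor gene rme-2 in the mutant. vit-1 fell by 3.25 in wild type and fell by 3.18 in the mutant, while dsc-4 fell by 0.97 in wild type and rose by 0.86 in the mutant, a strain difference of 1.84 (adjusted p = 1.4e-06).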

How the data were processed

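Cyanine-labelled RNA of early day 1 adult worms was hybridised in pairs to Agilent 4x44K C. elegans arrays. The authors deposited each array as the output of Agilent Feature Extraction 12.0.2.2 (version per the file headers), with mean spot and background signals per channel as raw intensity and a dye-normalised log10 ratio, and a series table whose values equal that ratio on the log2 scale, within rounding, turned to the direction of the channel fields. No column of the authors' own comparisons was used, and 0 value columns of samples were set aside.

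Here the median spot and local background signals were used. From these intensities, background was corrected in R 4.3.3 (tables read with the data.table package, version 1.17.8) with limma 3.58.1 (normexp, offset 50), and each array was loess-normalised. Control spots and spots marked as outliers were left out, signs were turned by the strain and treatment fields, and probes of a gene were averaged. Through RefSeq names, 34513 of 43603 probes were matched to a gene; other probes kept the array's name. A probe was kept in a fit when it was above background, in at least 1 channel, on all arrays of at least 1 comparison. A gene also needed a value on at least 2 arrays of each comparison. This left 22067 genes at 6 h and 23058 at 20 h, where no background filter would leave 25477 and 25461. Each comparison was the mean of 3 arrays, fitted over the 12 arrays of a time (8 residual degrees of freedom), or over 24 arrays for differences between times. The study used SAM at a false discovery rate of 0.01; limma was used at that rate because 3 arrays allow few sign changes. The fit was tested on simulated data with known changes. The number of arrays limits the precision. The genes named are the 9 members, for each called member the 3 genes most correlated with it, up to 4 called genes per other list with the largest ratios, and pqm-1 as the check of the mutant label; genes outside that rule are named only for their role beside a member. Members and lists were chosen with earlier results of these data known. Slides (7 in all) were tested as a block. Alternatives covered the background offset, normalisation, source of the ratio, dye direction, dim probes, dye and slide terms, a replicate block, another model, the threshold and each array left out. No protein, promoter or probe sequence was used here.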

Additional observations from a re-analysis of the deposited data

Results flagged for a closer look

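A tested difference between the 2 strains or between the 2 times singled out 8 values (log2 scale, adjusted p of limma). The effect of CoCl2 differed between strains for lbp-5 (-1.13, adjusted p = 0.00431) and lbp-3 (-0.83, adjusted p = 0.00319) at 6 h and for lbp-7 (1.00, adjusted p = 3.2e-04) at 20 h. It differed between 20 h and 6 h in wild type for lbp-1 (1.05, adjusted p = 0.00121) and lbp-6 (-0.84, adjusted p = 1.4e-04). In pqm-1(ok485) it differed between the times for lbp-1 (0.99, adjusted p = 7.7e-04), lbp-3 (0.94, adjusted p = 4.6e-06) and lbp-7 (1.09, adjusted p = 6.3e-05). The lbp-7 strain difference at 20 h kept its sign within the 1 slide that held both comparisons (0.78), and so did the wild type time differences of lbp-1 (0.68) and lbp-6 (-0.74). No slide allowed the same for the others.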

How the results depend on the processing

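The number of lbp genes called is given here by setting. With each array centred on its median in place of loess, the count went from 2 to 1 in wild type at 6 h, from 6 to 1 in the mutant at 6 h, from 6 to 3 in wild type at 20 h, and to 0 in the untreated strain comparison of both times, the strain comparison with CoCl2 at 6 h, both strain differences and both CoCl2 time differences. With the scanner software's log ratio or the authors' series table, which shift the median of all genes by up to -0.17, the count was 1 in wild type at 6 h, 1 for the strain difference at 6 h, 0 for untreated strains at 20 h, 2 for strains with CoCl2 at 20 h and 1 for the time difference of strains with CoCl2. With no offset it was 0 in wild type at 6 h, 1 for the strain difference at 6 h and 0 for untreated strains at 20 h. With a dye term it was 5 for untreated strains and 4 for strains with CoCl2 at 6 h, 2 for untreated strains and 3 for the strain difference at 20 h, 5 for the mutant time difference and 1 for that of strains with CoCl2. With slide-specific dye effects it was 5, 5, 0 (untreated strains at 20 h), 5 and 1 in the same comparisons without the strain difference. With slide as a random block it was 5 and 4 for both strain comparisons at 6 h, 2 for the strain difference at 20 h, 5 for the mutant time difference and 1 for that of strains with CoCl2. With 1 model over the 4 conditions it was 4 for both strain comparisons at 6 h, for both strain differences and for the wild type time difference, and 1 for that of strains with CoCl2. With only the arrays compared it was 2 in the mutant at 6 h, 0 and 3 for untreated strains at 6 h and 20 h, 3 in wild type at 20 h and 1 for the wild type time difference. At an adjusted p below 0.05 it was 4 for both strain comparisons at 6 h, 2 for untreated strains and 3 for the strain difference at 20 h, 4 for the wild type time difference and 1 for that of strains with CoCl2. The other pair of comparisons gave 3 for the strain difference at 20 h.

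With dye directions read from the source names no lbp gene was called in any comparison (0 in each). The called values then turned sign for lbp-1 (-0.47), lbp-3 (0.0252), lbp-5 (0.30), lbp-6 (0.35), lbp-7 (-0.48) and lbp-8 (0.63) in the mutant at 6 h, for lbp-1 (-0.50) and lbp-7 (-0.26) between strains with CoCl2 at 6 h, for lbp-4 (0.0159) in wild type at 20 h, and for lbp-1 (-0.33), lbp-4 (0.0766), lbp-6 (-0.25) and lbp-7 (-0.42) between strains with CoCl2 at 20 h.

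Deviations of same-numbered arrays correlated from -0.67 to 0.41 at 6 h (median -0.33, against 0.04 for other pairs of arrays). At 20 h they correlated from -0.34 to 0.42 (median 0.004, against 0.04). A shared RNA can sit on the same or on opposite sides of 2 ratios. These values thus cannot show whether replicate numbers pair the arrays. A replicate block gave 1 call in wild type at 6 h, 0 for the strain difference at 6 h (lbp-3 and lbp-5 not called), 0 for untreated strains at 20 h and 2 for the strain difference at 20 h, and the other counts stayed within 1.5 times.

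Leaving out 1 array at a time gave 0 to 1 calls in wild type at 6 h, 2 to 5 in the mutant at 6 h, 1 to 2 in each strain comparison at 6 h, 0 to 1 for the strain difference at 6 h, 5 to 6 in wild type and 5 in the mutant at 20 h, 0 for untreated strains and 3 to 4 for strains with CoCl2 at 20 h, 1 to 2 for the strain difference at 20 h, 1 to 2 and 3 for the time differences of wild type and mutant, and 0 and 0 to 1 for those of the strain comparisons. No filter or a strict filter on dim probes, the brightest probe of each gene and no minimum number of arrays (chosen after seeing the data) left every count within 1.5 times. The cause of these changes was not tested. Signal limits lbp-8, whose CoCl2 channels were near background.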
